A study of Mus musculus with 6 samples.

Results

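The genes described here encode the proteins of the cytosolic ribosome. They were chosen by gene symbol alone: symbols of the Rpl and Rps series with a plain number, alone or followed by a, x or y, the stalk genes Rplp0 to Rplp2, and Rpsa and Fau. Of the 16472 genes in the authors' deposited table, 77 met this rule, 46 of the large subunit and 31 of the small subunit, and all 77 had an adjusted p-value. Some ribosomal protein genes carry other symbols in the table, such as Rps3a1 and Gnb2l1 (now called Rack1), and are not members under the rule.

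HT22 is an immortalised cell line from mouse hippocampus. Cultures received AA147, a small molecule known to activate ATF6, a sensor of misfolded proteins in the endoplasmic reticulum, and the oxidative stress regulator NRF2, or its vehicle DMSO. Both groups were collected after 16 h, with 3 libraries each; the labels write the dose of AA147 as 10 mM, a unit that may be a slip for micromolar and could not be checked here. The labels do not say whether the libraries of a group came from separate cultures grown at different times, so p-values measure only the spread between these libraries, which may be technical. The authors' deposited table gives 1 line per gene: the mean normalized count over the 6 libraries, the log2 fold change between groups, its standard error (SE) and the p-value before and after adjustment. Values per library were not analysed here. The table does not name the numerator of the fold change. A negative value is read as lower with AA147, and each direction below holds only under that reading. A gene is said to be called where DESeq2 as run by the authors gave an adjusted p under 0.05; the deposited values equal a Benjamini-Hochberg adjustment over 13597 genes. Of 8 neuron markers, Tubb3, Syn1 and Dlg4 had means from 561.8 to 1653 per the authors' deposited table; the other 5, Rbfox3, Map2, Snap25, Syp and Nefl, were not analysed here. Tubb3, a neuronal tubulin, was called positive at 0.43 (SE 0.092, with an adjusted p of 5.67e-05), and Syn1 at 0.13 (SE 0.13) and Dlg4 at -0.15 (SE 0.076) were not called in the authors' deposited table; their part in the results below was not tested.

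The small subunit of the ribosome reads the mRNA, and the large subunit joins amino acids and passes the growing chain through its exit tunnel. Most of the proteins are present once per ribosome, the acidic stalk proteins in more copies, and their mRNAs share a 5′ terminal oligopyrimidine (TOP) tract, a C followed by a run of pyrimidines at the first base. Through this tract the kinase complex mTORC1 and the RNA-binding protein LARP1 control their translation and stability. Mammalian genomes hold many processed pseudogenes, intronless copies of these mRNAs, so short reads from a ribosomal protein gene can often be placed at several loci.

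The TOP tract was looked for at the gene starts that RefSeq gives on mouse assembly GRCm38.p6. It was defined as a C followed by at least 4 pyrimidines, beginning at the annotated first base. Of the 77 genes, 57 matched a promoter entry, with 67 starts. A tract began exactly at 14 of these starts, 20.9%, beside 2.51% of all 32851 starts. Within 10 bases of the start, where annotation errors are allowed for, a tract began at 55.2% of the members' starts and 30.7% of all starts. Windows from 20 bases before to 20 bases after the start are shown for 6 genes, called and not called, with the tract in capitals. All 6 were picked because they have a tract at the start; of them Rpl15 and Rps15a were called.
Rpl15, chr14:18270967-18271006, minus strand: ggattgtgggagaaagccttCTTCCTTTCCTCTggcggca
Rps15a, chr7:118116128-118116167, minus strand: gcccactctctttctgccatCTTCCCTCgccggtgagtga
Rplp2, chr7:141447631-141447670, plus strand: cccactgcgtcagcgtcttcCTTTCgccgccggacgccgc
Rps18, chr17:33955646-33955685, minus strand: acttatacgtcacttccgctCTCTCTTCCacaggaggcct
Rpl38, chr11:114668560-114668599, plus strand: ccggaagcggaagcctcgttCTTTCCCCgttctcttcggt
Fau, chr19:6057927-6057966, plus strand: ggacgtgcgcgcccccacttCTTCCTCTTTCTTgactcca

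In the window of 250 bases before to 50 after the start, on either strand, the ETS core CCGGAAG was found at 35.8% of members' starts and 8.86% of all starts. For the YY1 core AANATGGC these shares were 23.9% and 6.05%, and for the GC box GGGCGG 61.2% and 35.7%. A match describes the letters in the window only.

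The comparison asks whether ribosomal protein transcripts differed between AA147 and vehicle. In both subunits about 1 gene in 3 was called slightly lower with AA147, none was called higher, and the others did not pass the test. Of the 77 genes, 24 were called, all negative, which is 31.2%, where 20.2% of all genes were called, 11.1% negative and 9.05% positive. No member was called positive, and at an unadjusted p under 0.05 there were 33 negative and 0 positive members. Over all 77 genes, 59 had a negative and 18 a positive fold change, with a median of -0.14 and a median SE of 0.092, beside a median of 0.01 over all genes tested.

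By subunit, the large subunit had 14 called genes of 46 and the small subunit 10 of 31, shares of 30.4% and 32.3%. The large subunit held 33 negative and 13 positive fold changes, with a median of -0.14, the middle 50% from -0.20 to 0.02, and a median SE of 0.095. In the small subunit 26 were negative and 5 positive, with a median of -0.16, the middle 50% from -0.22 to -0.07, and a median SE of 0.088. The difference between the subunits was not tested. Their ranges overlapped over most of their length, from -0.38 to 0.35 for the large and from -0.33 to 0.24 for the small subunit.

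**Figure D1:**
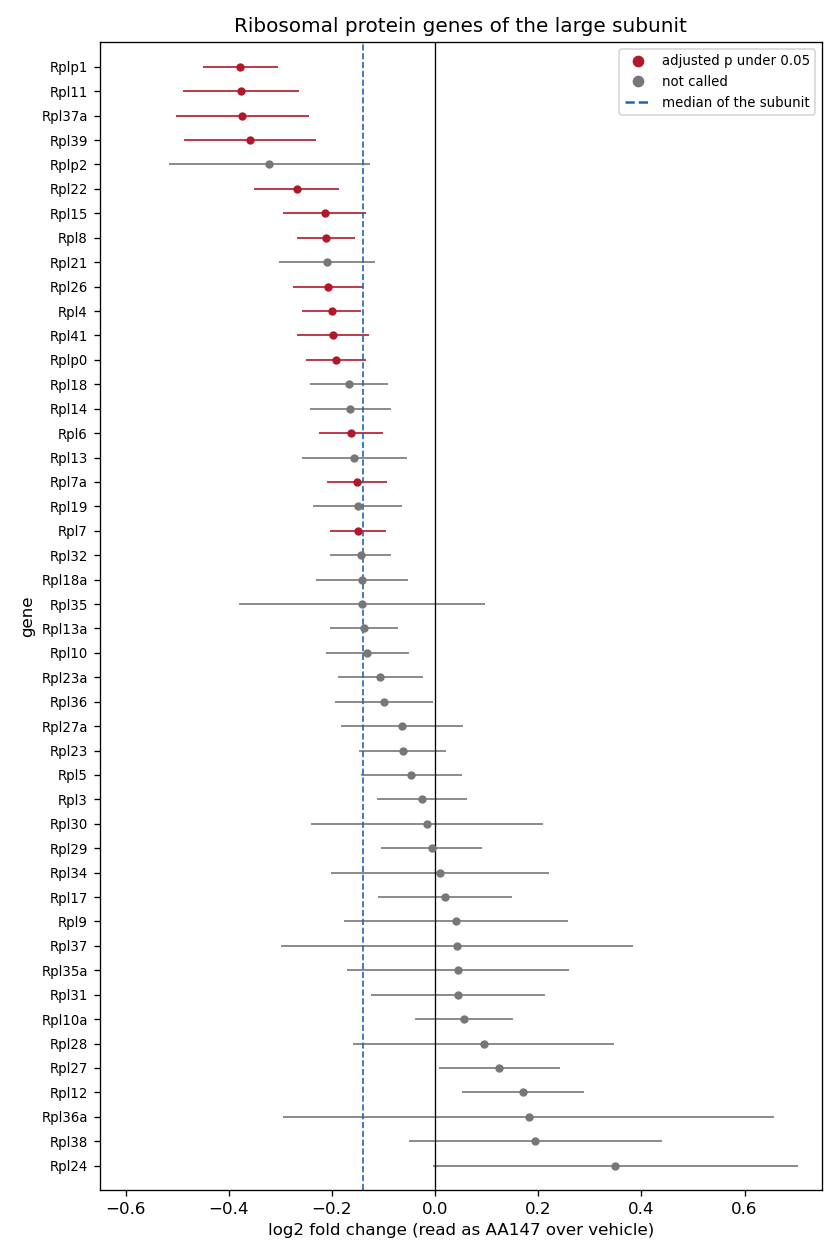
Log2 fold change of each of the 46 large subunit genes in the authors' deposited table (x axis, read as AA147 over vehicle; bars show 1 SE), sorted from most negative to most positive, with the 14 called genes in red. The called genes lie between -0.38 and -0.15, and the genes with positive values have bars that are mostly wider than those of the called genes.

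**Figure D2:**
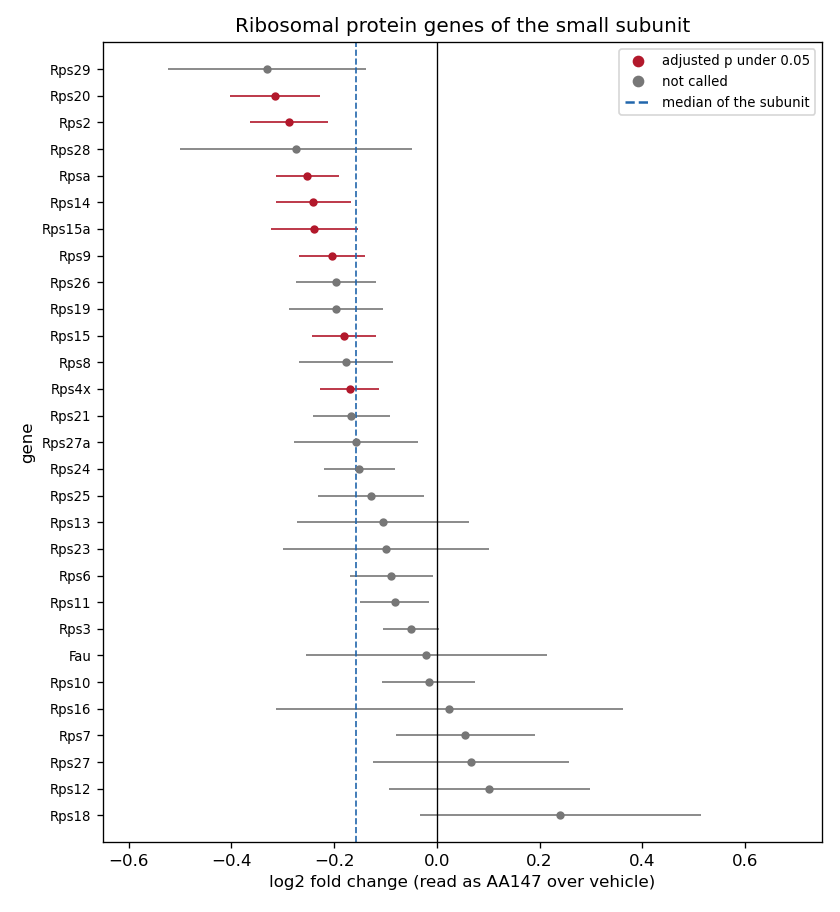
Log2 fold change of 29 small subunit genes in the authors' deposited table (x axis, read as AA147 over vehicle; bars show 1 SE), sorted in the same way, with 8 called genes in red, the other 2 called genes not drawn, and the median of the whole subunit as a dashed line. Positive values are found for 5 of the genes, and the widest bar belongs to Rps16.

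The stalk of the large subunit, which recruits the GTPase factors of translation, held the lowest value. Rplp1, one of the acidic stalk proteins, had a mean of 17051 normalized counts in the authors' deposited table and fell by 23.0% (log2 fold change -0.38, SE 0.073, with an adjusted p of 4.73e-06). Its partner Rplp2 had a similar fold change of -0.32 per the authors' deposited table, and its SE of 0.19 was 2.80 times the typical SE at its mean of 3205; it was not called (adjusted p of 0.260). Rplp0, which anchors both to the ribosome and is often used as a reference gene, fell by 12.5% at a mean of 91732 (-0.19, SE 0.059, with an adjusted p of 0.0085) per the authors' deposited table. Rpl12, at the base of the stalk, had a value on the other side of 0, 0.17 with an SE of 0.12 (adjusted p of 0.341) per the authors' deposited table. Of the 4 stalk genes, 2 were thus called, beside 20.2% of all genes, 11.1% negative. The called stalk genes had means of at least 10000, where 41.7% of all genes were called.

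Rpl5 and Rpl11 enter the ribosome together with the 5S rRNA, and the same particle can bind the p53 regulator Mdm2 when assembly fails. Rpl11 fell by 22.9% (-0.38, SE 0.11, with an adjusted p of 0.0070), whereas Rpl5 lay at -0.05 with an SE of 0.098, not called (adjusted p of 0.809) per the authors' deposited table. The 95% interval of Rpl5 reached from -0.24 to 0.15 and that of Rpl11 from -0.60 to -0.16, so the intervals overlapped, and the difference between them was not tested.

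Around the opening of the exit tunnel, 2 of 7 genes, 28.6%, were called, beside 20.2% of all genes, 11.1% negative. Rpl39, a very small protein that lines the tunnel, was among the lowest at -0.36 (SE 0.13, with an adjusted p of 0.029), a level 22.0% lower, at a mean of 384.8 per the authors' deposited table. Rpl26 fell by 13.5% (-0.21, SE 0.068, with an adjusted p of 0.014) per the authors' deposited table. The other 5, Rpl19 at -0.15, Rpl35 at -0.14, Rpl23a at -0.11, Rpl17 at 0.02 and Rpl31 at 0.04, had SEs from 0.083 to 0.24 per the authors' deposited table. Their values spread over both sides of 0.

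Among the remaining large subunit genes, Rpl37a, a zinc-binding protein, fell by 22.8% (-0.37, SE 0.13, with an adjusted p of 0.024), and Rpl22, an RNA-binding protein with a known paralog, fell by 17.0% (-0.27, SE 0.082, with an adjusted p of 0.0084) per the authors' deposited table. Rpl8, which lies near the site of peptide bond formation, had the highest mean of all members, 113432, and fell by 13.6% (-0.21, SE 0.057, with an adjusted p of 0.0020) per the authors' deposited table. The other called genes are named only because they passed the test. They were Rpl15 at -0.21, Rpl4 and Rpl41 at -0.20, Rpl6 at -0.16, and Rpl7a and Rpl7 at -0.15, with SEs from 0.054 to 0.080 per the authors' deposited table. The most positive values were those of Rpl24, a contact to the small subunit, at 0.35 (SE 0.35), Rpl38 at 0.19 (SE 0.24), Rpl36a at 0.18 (SE 0.48) and Rpl27 at 0.12 (SE 0.12) per the authors' deposited table. Each of these lay within 2 SE of 0, and their adjusted p ran from 0.521 to 0.850.

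In the small subunit, the path of the mRNA held some of the lowest values. Rps2, at the mRNA entry, fell by 18.1% (-0.29, SE 0.076, with an adjusted p of 0.0016), while its neighbours there, Rps3 at -0.05 (SE 0.055) and Fau at -0.02 (SE 0.23), were not called in the authors' deposited table. The interval of Rps3, from -0.16 to 0.06, is one of the narrowest among the members not called. At the mRNA exit, Rpsa, also known as the laminin receptor, fell by 16.1% at a mean of 32174 (-0.25, SE 0.061, with an adjusted p of 0.00049) per the authors' deposited table. Rps28 at -0.27 (SE 0.23, with an adjusted p of 0.452) and Rps26 at -0.20 (SE 0.078, with an adjusted p of 0.055) were not called in the authors' deposited table, the second narrowly.

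The head of the small subunit, which swivels as mRNA and tRNA move, had 4 called genes of 14 and a median of -0.15. The 17 genes outside the head had 6 called and a median of -0.17. These shares are 28.6% and 35.3%, beside 20.2% of all genes called, 11.1% negative. The median of the mean counts was 3064 in the head and 6594 outside it, and the difference between these groups was not tested. In the head, Rps29 had the lowest value, -0.33, at a mean of only 151.5 and an SE of 0.19 (adjusted p of 0.239) per the authors' deposited table. Rps20 fell by 19.6% (-0.31, SE 0.088, with an adjusted p of 0.0032) per the authors' deposited table. The most positive small subunit value, Rps18 at 0.24, was also a head protein, but its mean of 97.9 was among the lowest of all members and its SE was 0.27 (adjusted p of 0.612) per the authors' deposited table. Further positive values were 0.10 for Rps12, 0.07 for Rps27, 0.06 for Rps7 and 0.02 for Rps16, with SEs from 0.14 to 0.34 per the authors' deposited table. Further called genes of the small subunit were Rps15 at -0.18 in the head, and Rps14 and Rps15a at -0.24, Rps9 at -0.20 and Rps4x at -0.17 outside it, with SEs from 0.057 to 0.085 per the authors' deposited table.

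Other groupings cut across the subunits. The proteins with a counterpart in bacteria, which form the core of the ribosome, had 8 called of 15 in the small subunit with a median of -0.18, and 6 of 18 in the large subunit with a median of -0.12. Proteins without such a counterpart had 2 called of 16 and a median of -0.15 in the small, and 8 of 28 and also -0.15 in the large subunit. Of all genes 20.2% were called, 11.1% negative, and the share called rose with the mean count. The median of the mean counts was 7421 for small subunit genes with a counterpart and 3854 for those without. In the large subunit these medians were 3120 and 2524. The difference between these groups was not tested. Of the 4 genes on the X chromosome, Rpl39 and Rps4x were called, and Rpl10 at -0.13 (SE 0.081) and Rpl36a were not, in the authors' deposited table. Rps27a and Fau, which encode a ribosomal protein fused to ubiquitin or a ubiquitin-like protein, lay at -0.16 (SE 0.12) and -0.02 (SE 0.23) and were not called in the authors' deposited table, with adjusted p of 0.405 and 0.969. The 14 genes with a tract at the annotated start included 2 called genes, and the median of their log2 fold changes was -0.05. The other 43 genes with a promoter entry had a median of -0.15, and 15 of them were called. With a tract allowed within 10 bases of the start, the medians were close. The 35 genes with one had a median of -0.137 and 8 called, and the 22 without one had -0.144 and 9 called. Of all genes 20.2% were called, and the part of the tract was not tested.

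The deposited fold change went with the mean. All 20 members at a mean of at least 10000 had a negative fold change, with a median of -0.18. Of all 465 genes in that range 61.9% were negative, with a median of -0.047. Among the 20 members 13, or 65%, were called, where 41.7% of the 465 genes were called and 29.7% were called negative. At means from 1000 to 10000 and under 1000, 47.0% and 48.8% of all genes were negative. From 1000 to 10000, 32 of 34 members were negative and 9, or 26.5%, were called, beside 27.3% of all genes in that range, 14.4% negative. Under 1000, only 7 of 23 members were negative, the median was 0.04, and 2 were called, 8.70%, beside 7.69% of all such genes called negative and 6.17% positive. Rpl30, a large subunit protein with the lowest mean of all members, 97.7, lay at -0.02 with an SE of 0.22 per the authors' deposited table. The SE changed along with the mean, with medians of 0.062, 0.090 and 0.19 for the members in these ranges. Across the 77 genes, Spearman's rho between fold change and mean was -0.52, a description over genes that share the same libraries.

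**Figure D3:**
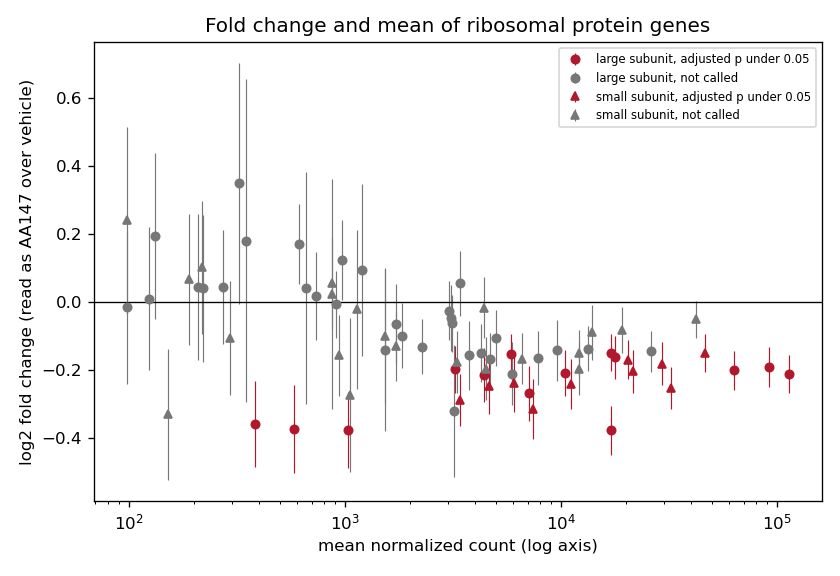
Log2 fold change with 1 SE (y axis, read as AA147 over vehicle) against the mean normalized count (x axis, log scale) for the 77 genes, by subunit and call. All 20 genes with a mean of at least 10000 lie below 0, and the positive values are found mostly at means under 1000.

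The means themselves were far from equal, although the ribosome holds most of the proteins in equal numbers. Per kb of coding sequence they ran from 214.7 for Rps18 to 147123 for Rpl8, a 685-fold range, with a median of 5956. To see how this goes with sequence copies, each coding sequence of the GENCODE release M39 annotation was divided into overlapping windows of 100 bases, and the share of windows found without a mismatch elsewhere in the GRCm39 genome was counted. The read length is not given in the sources used here, so 100 bases is a choice and not the length of the reads. In 26 genes every window had such a match, and in 20 genes under 50% did, a split chosen after the values were seen; Rpl41 was too short for a window. The median level per kb was 31653 for the 20 genes with under 50% of windows matched, 7421 for the 30 between, and 2191 for the 26 with matches throughout. Spearman's rho between share and level was -0.64 over 76 genes, a description.

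The fold changes and calls went the same way. Of the 20 genes with under 50% of windows matched, 12 were called and 18 were negative, with a median of -0.18 and a median SE of 0.065. The 2 positive ones, Rps18 and Rpl34, were near the limit, with 49.9% and 46.8% of windows matched. Of the 30 between, 9 were called and 26 were negative, with a median of -0.15. Of the 26 with matches throughout, 2 were called, Rpl11 and Rpl15, and 14 were negative, with a median of -0.03 and a median SE of 0.15. In the last class the large subunit had 7 negative of 16 and a median of 0.03, and the small subunit 7 of 10 and a median of -0.09. The median of the mean counts was 18115 in the first class and 1002 in the last. Of all genes 20.2% were called, and of those with a mean of at least 10000, 41.7%. How the authors placed reads with several matches is not given in the sources used here, and its part in the fold changes was not tested.

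**Figure D4:**
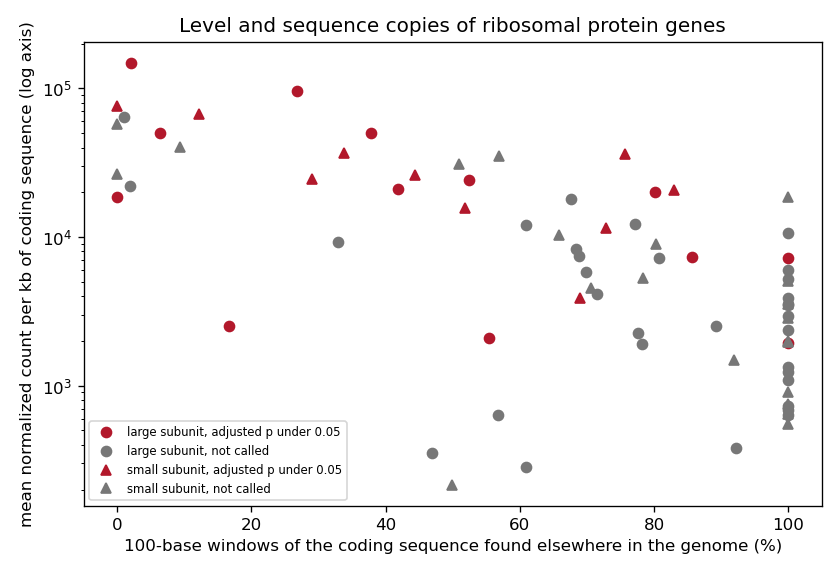
Mean normalized count per kb of coding sequence (y axis, log scale) against the share of 100-base windows of the coding sequence found elsewhere in the genome (x axis) for 76 genes, by subunit and call. The genes with under 50% of windows found elsewhere sit mostly above 10000, and the column at 100% runs from about the level of Rps12 to that of Rps6.

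Some copies had entries of their own. Annotated pseudogenes, and the intronless gene Rps27rt, were searched for the 31-base words of each coding sequence, and 14 entries in the authors' deposited table held at least 50% of the words of 1 of 13 members. The copy had the larger mean in 9 of these 14 pairs. Of the copies, 13 had a negative fold change, 4 were called negative and 0 positive, and at 10 of the 14 pairs the copy's fold change was lower than the member's. Of the 13 members themselves, 2 were called, Rpl11 and Rpl7a. Beside these counts, 20.2% of all genes were called, 11.1% negative, and 41.7% of those with a mean of at least 10000. The called copies Rps27rt and Rpl37rt had means in that range.

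The 3 pairs in which the copy's mean exceeded the member's by the largest factor are shown as sequence because they differ by almost nothing. Rps27 (GRCm39 chr3:90119819-90120977, minus strand) and Rps27rt (chr9:114811434-114811807, minus strand) have the same 252-base coding sequence, 0 differences, of which the first 100 bases are given once for both. Rpl37 (chr15:5145959-5153877, plus strand) differs from the processed pseudogene Rpl37rt (chr5:115241287-115241580, minus strand) at 1 of 291 coding bases, G249A, counted from the A of the start codon. Rpl34 (chr3:130519106-130524155, minus strand) differs from Rpl34-ps1 (chr6:71101594-71101947, plus strand) at 2 of 351, T132C and C318G. For these, 60 bases are shown, with the differing base in capitals.
Rps27 and Rps27rt, coding bases 1 to 100: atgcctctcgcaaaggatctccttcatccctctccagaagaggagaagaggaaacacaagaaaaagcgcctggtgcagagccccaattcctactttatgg
Rpl37, coding bases 219 to 278: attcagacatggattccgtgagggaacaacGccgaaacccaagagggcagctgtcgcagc
Rpl37rt: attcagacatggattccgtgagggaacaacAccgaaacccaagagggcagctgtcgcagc
Rpl34, coding bases 102 to 161: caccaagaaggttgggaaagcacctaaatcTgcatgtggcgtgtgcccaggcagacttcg
Rpl34-ps1: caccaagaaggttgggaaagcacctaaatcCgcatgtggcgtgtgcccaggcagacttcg

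Rps27 was counted at a mean of 190.6, with a fold change of 0.07 (SE 0.19, with an adjusted p of 0.868) per the authors' deposited table. Rps27rt was counted at a mean of 13438, its fold change being -0.39 (SE 0.073, with an adjusted p of 2.09e-06), a level 23.8% lower and the lowest value of any gene in the lists of ribosomal proteins and paralogs used here, in the authors' deposited table. Rpl37 was counted at 662.3, with a fold change of 0.04 (SE 0.34), against 26270 and -0.19 (SE 0.065, with an adjusted p of 0.019) for Rpl37rt in the authors' deposited table. For Rpl34 the mean was 124.4 and the fold change 0.01 (SE 0.21), and for Rpl34-ps1 they were 15711 and -0.17 (SE 0.065, with an adjusted p of 0.050) per the authors' deposited table, with the copy just short of a call. In each of the 3 pairs the entry with more counts had the negative value and the smaller SE. Reads of near-identical sequences cannot be assigned to 1 of them with certainty, so the values of these single genes are uncertain, and without strand information the same holds for reads from overlapping genes on the other strand. The same held for Rpl10 and its copy Gm5621, where the member had more counts. Rpl10 lay at -0.13 (SE 0.081) and Gm5621 at 0.11 (SE 0.22), at means of 2278 and 218.3, per the authors' deposited table. The pattern was not shared by all pairs, and in those that follow both entries were negative. Rpl11 at -0.38 (SE 0.11) and its copy Gm6745 at -0.38 (SE 0.095) were both called, at means of 1030 and 1727 per the authors' deposited table. For Rpl3 and Gm5879, with means of 3042 and 3032, the fold changes were -0.02 and -0.01 per the authors' deposited table.

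**Figure D5:**
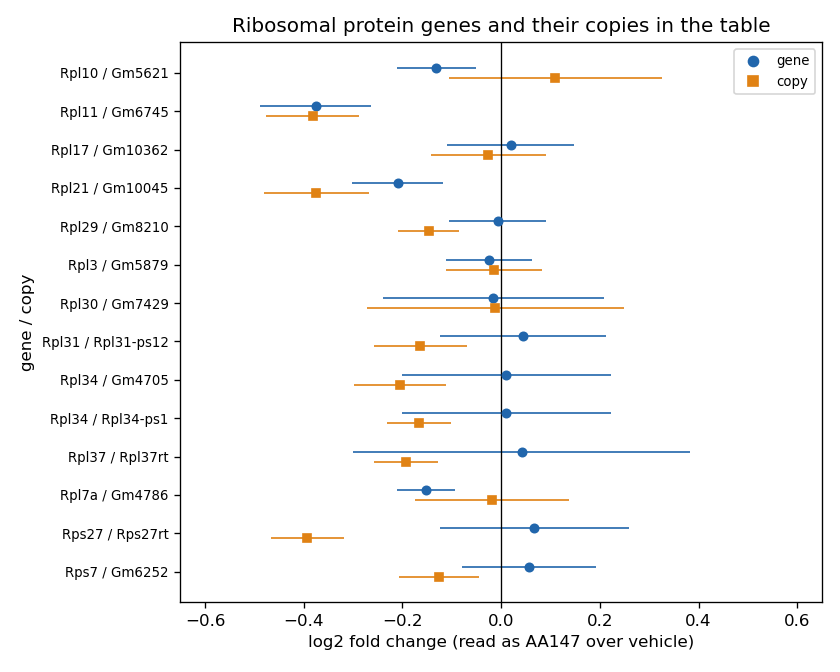
Log2 fold change with 1 SE (x axis, read as AA147 over vehicle) of the 13 genes (blue) and their 14 copies with an entry in the authors' deposited table (orange). The copies Rps27rt, Gm6745, Gm10045 and Rpl37rt were called negative, and the gap is widest for Rps27 and Rps27rt.

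The SE was unusually large for a number of members. It was at least 1.5 times the running median of genes with a like mean for 12 of the 77 genes, 15.6%, beside 1.76% of the 10633 genes whose mean was at least 100. The largest were those of Rpl36a at 0.48, Rpl24 at 0.35, Rpl37 at 0.34 and Rps16 at 0.34, which were 3.59, 2.57, 3.26 and 3.56 times that median in the authors' deposited table. None of the 12 genes was called, none of them by the unadjusted p under 0.05 either, and their fold changes were negative for 7 and positive for 5. In 10 of the 12 the SE was 0.19 or more, wider than that of any called member, the largest of which was 0.13; the other two, Rpl13 and Rpl27a, had SEs of 0.10 and 0.12 per the authors' deposited table.

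Transcript length moved with the fold changes too. Of the 77 genes, 48 lay in the shortest of 10 length classes among genes whose mean was at least 100, those of at most 1350 bases. The genes of that class outside the naming rule had a median of -0.05, and 17.1% of them were called negative. After subtraction of a trend on transcript length, GC content and mean, the median of the members moved from -0.14 to -0.07. Of 75 members with a trend value 9 were called, all negative and all among the 24: Rpl11, Rpl15, Rpl37a, Rpl39, Rplp1, Rps15a, Rps2, Rps20 and Rpsa. In the same setting 13.1% of all 10116 genes were called negative and 10.1% positive. With the test statistic divided by its robust SD over genes, which was 2.03, 0 members were called, and 347 of all genes were. In bulk libraries a lower share of cells that express a gene and less of its RNA per cell cannot be told apart.

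Rps3a1 and Gnb2l1, which the naming rule leaves out, lay at -0.15 (SE 0.068, with an adjusted p of 0.1004) and -0.11 (SE 0.049, with an adjusted p of 0.0995) per the authors' deposited table. Gnb2l1 encodes a scaffold protein of the small subunit and had a mean of 136676 per the authors' deposited table. Neither was called. Of 10 paralogs and related genes, 7 were in the authors' deposited table and 1, Rps27rt, was called. That is 14.3% of the 7, beside 20.2% of all genes. Rps27l, a p53-inducible relative of Rps27, lay at -0.22 (SE 0.094, with an adjusted p of 0.077), Rps19bp1, a partner of Rps19, at -0.14 (SE 0.082), Rpl36al at -0.13 (SE 0.068) and Rpl7l1 at -0.07 (SE 0.061) per the authors' deposited table. Rpl39l at 0.03 (SE 0.090) and Rpl22l1 at 0.12 (SE 0.13) were also not called in the authors' deposited table. Rpl22l1 is known to be repressed by Rpl22. In these data Rpl22 was called negative and the 95% interval of Rpl22l1 ran from -0.13 to 0.38.

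Of 17 other mRNAs with a TOP tract, 15 had negative fold changes, with a median of -0.07, and 3 were called negative and 1 positive. These 4 calls are 23.5% of the list, near the 20.2% of all genes. The elongation factor subunits Eef1b2 and Eef1g lay at -0.21 (SE 0.061, with an adjusted p of 0.0050) and -0.21 (SE 0.069, with an adjusted p of 0.017), and the poly(A)-binding protein gene Pabpc1 at -0.18 (SE 0.056, with an adjusted p of 0.0099) per the authors' deposited table. The most abundant of the list, Eef1a1 and Eef2, had values of -0.02 (SE 0.053) and -0.05 (SE 0.052) per the authors' deposited table, and these 2 are named after their values were seen. Hnrnpa1, an RNA-binding protein, was called at 0.25 (SE 0.094, with an adjusted p of 0.039) per the authors' deposited table, and Nap1l1 lay at 0.09 (SE 0.088).

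Long noncoding transcripts that host small nucleolar RNAs in their introns also carry TOP tracts. Of 7 such genes, 6 had negative values and 1 was called, Snhg1 at -0.24 (SE 0.090, with an adjusted p of 0.041) per the authors' deposited table. This 1 call is 14.3% of the list, beside 20.2% of all genes called, 11.1% negative. Snhg8 at -0.22 (SE 0.091) and Snhg3 at 0.23 (SE 0.12) were the most extreme of those not called, and Snhg6, Gas5, Snhg5 and Snhg12 lay between -0.10 and -0.07, with SEs from 0.080 to 0.14 per the authors' deposited table.

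The regulators were tested for their own mRNA only, which says nothing of kinase activity. Of 15 genes of the mTORC1 axis, 0 were called by DESeq2, beside 20.2% of all genes, and the median of the 15 was -0.03. The lowest were Ddit4 at -0.17 (SE 0.088) and Rps6kb2 at -0.11 (SE 0.095), and the highest Tsc1, a brake on mTORC1, at 0.24 (SE 0.10, with an adjusted p of 0.076), the only gene of the list with an unadjusted p under 0.05, and Deptor at 0.10 (SE 0.19) per the authors' deposited table. Of 7 factors that bind promoters of ribosomal protein genes, Myc was called positive at 0.25 (SE 0.072, with an adjusted p of 0.0048) and Sp1 lay at 0.13 (SE 0.19), while Gabpb1 lay at -0.20 (SE 0.083, with an adjusted p of 0.081) and Gabpa at -0.00 (SE 0.064) per the authors' deposited table. Myc is known to raise transcription of these genes. Only its mRNA was measured, and its part in the fold changes of the members was not tested. Of 7 dedicated chaperones and assembly partners of single ribosomal proteins, 0 were called, and at an unadjusted p under 0.05 there were also 0; they ran from -0.12 for Ltv1 and -0.09 for Bccip to 0.06 for Grwd1 and 0.14 for Pdcd2l, with SEs from 0.073 to 0.10 per the authors' deposited table.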

How the data were processed

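The deposited data are 1 gene-level comparison of 3 AA147 and 3 vehicle libraries. Per the labels' protocols the libraries were non-stranded mRNA libraries. Per the submitters' processing notes DESeq2 was used and mm9 is named as genome build; the aligner, counter, annotation and read length are not given in the sources used here. The authors deposited a mean normalized count, a signal scaled between libraries, a log2 fold change with its SE, a score (the test statistic, equal to the log2 fold change divided by its SE within 3.06e-07), and a p-value with its adjusted p-value. The adjustment was recomputed and equalled the deposited one within 7.6e-07. Depth per library is unknown; the means sum to 30768012. The precision of a fold change is its SE, and intervals are 95% normal intervals.

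Members and lists were chosen with earlier results of these data known. Calls were counted at an adjusted p under 0.05; lists are described by counts and medians with no test. Named genes were the 5 extremes of each subunit in each direction, the members of the structural lists, the largest and smallest means, the 3 largest SEs, all paralogs, outside genes and snoRNA hosts, and the 2 extremes of other lists in each direction. Coding sequences, copies and lengths came from GENCODE M39 on GRCm39, used by symbol only, and promoters from RefSeq on GRCm38.p6. The trend on length, GC content and mean was fitted by robust linear regression to 10116 genes in statsmodels 0.14.6; tables were handled with pandas 2.3.3 under Python 3.11.15, and the code was tested on simulated data. Values of some single members are not reported here.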

Additional observations from a re-analysis of the deposited data

How the results depend on the processing

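No paired analysis was possible because the deposited table holds group comparisons and no column per library; other size factors, filters on counts and leaving out replicates were not run either. Of the 24 calls, 10 held at an adjusted p under 0.01 (6 in the large and 4 in the small subunit), 1 with a Bonferroni adjustment (Rplp1; 1 and 0), 1 against a null interval of 0.1 (also Rplp1; 1 and 0), and 0 with the statistic divided by its robust SD (0 and 0), each stricter by construction. Beside 10 of 77 members at an adjusted p under 0.01, 7.8% of all genes were called negative and 5.5% positive. These shares were 3.9% and 1.8% with Bonferroni, 6.6% and 3.9% against the null interval, and 1.8% and 0.7% with the divided statistic. Trend subtraction left 9 (5 and 4) of 75 members, beside 13.1% and 10.1% of all genes. The other adjustments and centring gave 22 to 26, with 8.9% to 13.5% of all genes called negative. Chosen after the data were seen, members with under 50% of windows found elsewhere gave 12 (7 and 5) from only 20 genes, and leaving out members with a large SE or adding ribosomal protein genes with other symbols kept 24. In no setting was a member called positive. The medians stayed negative in each setting run: -0.07 to -0.18 for all members, -0.09 to -0.18 for the small subunit and -0.043 to -0.20 for the large subunit, the value of -0.043 after trend subtraction. The subsets among these settings kept members with larger means or fewer matched windows. Members with a mean under 1000 had a median of 0.04. Those with all windows matched had 0.03 in the large and -0.09 in the small subunit. After trend subtraction 15 of the 24 were no longer called, among them Rpl26 at -0.14, Rps4x at -0.08, Rplp0 at -0.03 and Rpl8 at -0.01, and Rps26 was called at -0.21 after centring.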
